A study of Mus musculus with 8 samples.

Results

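The RNA exosome is the main 3′ to 5′ RNA-degrading machine of the cell, and 10 genes that encode its subunits were followed here in the cerebral cortex of mouse embryos with and without Taf8. The genes were Exosc1, Exosc2, Exosc3, Exosc4, Exosc5, Exosc7, Exosc8, Exosc9, Exosc10 and Dis3. They were taken by name, although the list was chosen with earlier results of these data known. All 10 were found among the 27179 genes of the count table and passed the filter on low counts. RNA was sequenced from 8 embryos. The 4 Taf8-intact embryos were labelled Taf8 +/+ and the 4 Taf8-deleted embryos Taf8 -/lox, that is, with a null and a loxP-flanked allele. No source used here names the recombinase, the embryonic stage or an allele that both groups share. Taf8 encodes a subunit of TFIID, the factor that places RNA polymerase II at promoters, and the comparison asks how the transcripts of the exosome differ when it is lost.

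The core of the exosome is a barrel through which RNA is threaded. Its ring is built of proteins related to a bacterial exonuclease, which in mammals have lost their catalytic activity, and is closed by a cap of RNA-binding subunits. RNA is cut by associated nucleases. Exosc10 acts in the nucleus and nucleolus, and Dis3 mainly in the nucleoplasm. In the nucleus the complex trims precursors of ribosomal and small nucleolar RNA and removes promoter-associated and other unstable noncoding transcripts, and in the cytoplasm it degrades mRNA. Inherited defects of several subunits, among them the cap protein Exosc3, are known in humans for disorders of brain development.

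The libraries held 39590959 to 44788200 counts, and no subunit gene had fewer than 575 or more than 4886 counts in any of them. Taf8 had 1222 to 1491 counts in the intact and 14 to 30 in the deleted libraries, so that each library had the Taf8 level of its label. Intact embryos had the animal numbers 408.4, 408.5, 408.6 and 409.2 and deleted embryos 456.1, 472.1, 477.1 and 486.1. What the number before the point marks is not said, and since none occurred in both groups it cannot be told apart from the genotype. Some cell type markers moved with the genotype. The sum of 8 radial glia markers was 2070.1 to 2365 CPM (counts relative to the TMM-scaled library size) in intact and 2937 to 3148 CPM in deleted cortex (5 higher, 2 lower), and that of 11 neuronal markers 7583 to 8349.6 CPM against 5513 to 5998 CPM (10 lower). That of 7 interneuron markers was 693 to 769 CPM against 477 to 505 CPM (6 lower). Cycling-cell markers overlapped, at 1706 to 2045 and 1768 to 1861 CPM (3 of 8 lower). Meningeal markers ranged from 15.9 to 36.9 CPM in intact and from 18.7 to 146 CPM in deleted libraries, with Lum at 0 in at least 1 library, endothelial markers from 134 to 142.5 and from 157 to 195 CPM, and choroid plexus markers from 3.35 to 289 and from 1.55 to 911 CPM. The part of these shifts in the exosome values was not tested. In such bulk tissue, fewer cells of a type and less RNA per cell cannot be told apart.

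Exosome subunit mRNAs changed little and in opposite directions. Exosc1, Exosc2, Exosc4, Exosc5, Exosc7 and Exosc9, all of cap or ring, rose by 10.1% to 36.3%, whereas both nuclease genes and the cap gene Exosc3 fell by 11.1% to 29.4%. The ring gene Exosc8 was not called. That is 6 genes higher and 3 lower of 10 by edgeR's quasi-likelihood test, where 63.5% of all 16074 genes tested were called, with 30.6% of all higher and 32.9% lower. That balance turned with the scaling, from 4919 higher and 5290 lower genes to 5837 and 4480 with upper-quartile factors and to 5894 and 4416 with library totals only, while the exosome counts went to 6 and 2. All 10 genes had values that did not overlap between the groups, as had 57.7% of all genes (27.6% with all deleted libraries above all intact ones, 30.1% below). The median log2 fold change of the 10 genes was 0.17 against 0.00 for all genes, and the median size of the change, regardless of sign, was 0.21 against 0.27. The plot of subunit levels by library shows how far apart the groups lie beside their spread.

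**Figure D1:**
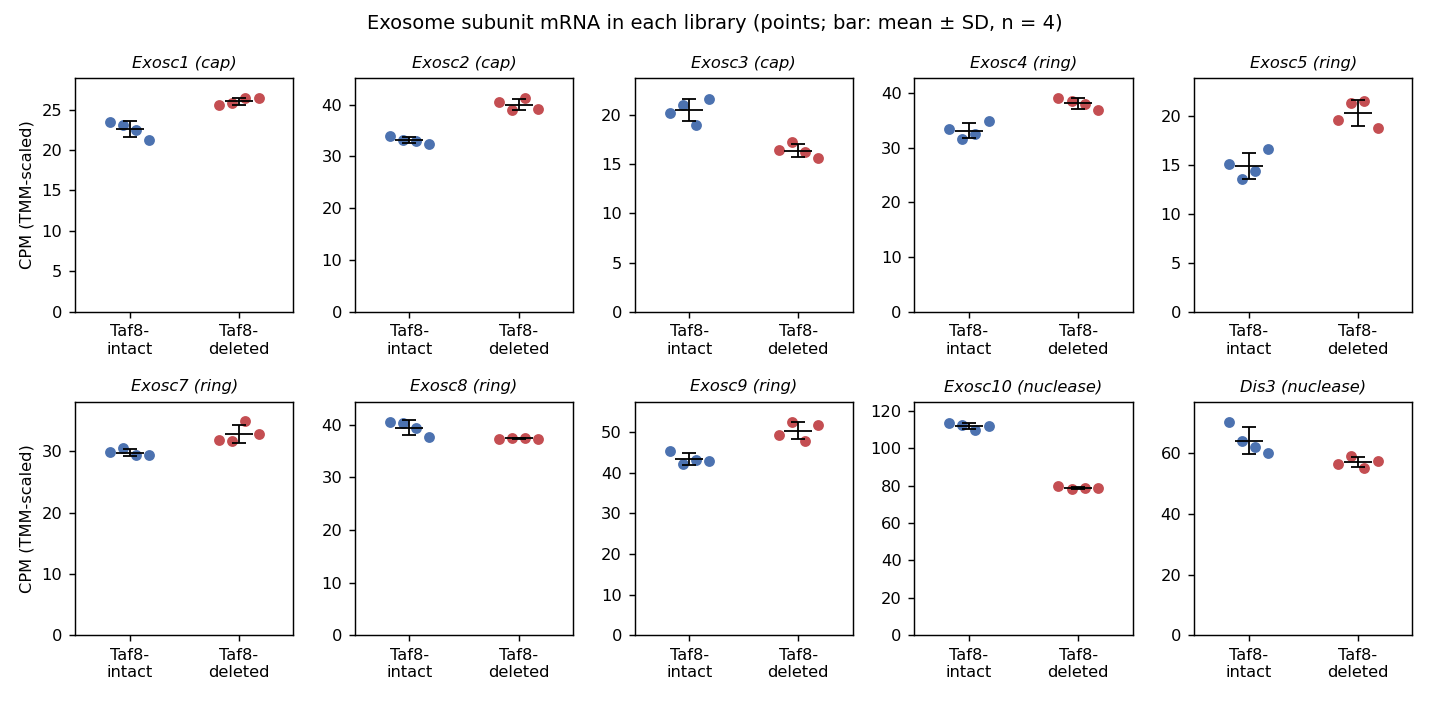
CPM of the 10 exosome subunit genes in each of the 4 Taf8-intact (blue) and 4 Taf8-deleted (red) libraries; points are libraries and bars mean ± SD. The groups are farthest apart for Exosc10, at 109.6 to 113.6 against 78.3 to 79.5 CPM, and nearly touch for Exosc8.

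Because the genes went apart, the stretches before the start sites of the 3 that fell and of the 2 with the largest rises are shown first. Each line holds the 120 bases before the RefSeq start (assembly GRCm38.p6), 5′ to 3′ on the strand of the gene. Capitals mark any match, on either strand, to CCAAT (the CCAAT box), GGGCGG (a GC box), CCGGAAG (an ETS-type element), CACGTG (an E-box), AAGATGG (YY1-type) or TATAAA (the TATA box).
Exosc10, lower, chr4:148558299-148558418, plus strand: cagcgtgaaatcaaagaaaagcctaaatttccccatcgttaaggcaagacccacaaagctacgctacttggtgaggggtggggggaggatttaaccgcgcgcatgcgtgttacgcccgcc
Exosc3, lower, chr4:45320617-45320736, minus strand: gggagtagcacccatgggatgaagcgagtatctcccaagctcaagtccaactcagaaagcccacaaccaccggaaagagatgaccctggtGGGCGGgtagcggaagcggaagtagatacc
Dis3, lower, chr14:99099771-99099890, minus strand: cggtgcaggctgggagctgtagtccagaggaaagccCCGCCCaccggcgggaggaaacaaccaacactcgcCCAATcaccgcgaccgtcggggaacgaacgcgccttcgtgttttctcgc
Exosc5, higher, chr7:25659033-25659152, plus strand: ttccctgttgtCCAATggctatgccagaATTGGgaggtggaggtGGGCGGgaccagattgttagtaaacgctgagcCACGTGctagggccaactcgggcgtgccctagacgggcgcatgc
Exosc2, higher, chr2:31670595-31670714, plus strand: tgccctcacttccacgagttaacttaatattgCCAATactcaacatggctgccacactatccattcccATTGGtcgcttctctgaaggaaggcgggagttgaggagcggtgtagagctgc
Windows of 250 bases before to 50 after the start were found for 8 of the 10 genes, all but Exosc4 and Exosc9, with 2 start sites for Exosc10. No window held TATAAA, which 9.02% of tested genes have. GGGCGG was in the windows of 7 of these 8 genes, against 66.9% of tested genes, and CCAAT in 4, against 42.7%. CCGGAAG was in the windows of Exosc3, Exosc10 and Dis3, the genes that fell, and in no other, against 17.8% of tested genes. It began 2 bases before the start of Exosc3, 138 bases before that of Dis3, and 64 and 1 bases before the second start of Exosc10, so that it lies across the start or outside the stretches shown. Over all 2156 tested genes with CCGGAAG, however, 38.0% were higher and 27.6% lower, against 29.3% and 34.9% of the 9989 genes without it. CACGTG was in the window of Exosc5 alone, against 11.2% of tested genes, and AAGATGG in that of Exosc2 alone, after the start, against 7.67%. Such matches describe the letters of these windows and were not tested.

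Exosc10, the nuclear nuclease (gene ID 50912, chromosome 4, 148558419 to 148582401 in GRCm38), had the largest change. It stood at 113.6, 112.1, 109.6 and 111.6 CPM in the intact and at 79.5, 78.3, 78.9 and 78.9 CPM in the deleted libraries. Both groups were tight, with a coefficient of variation of 1.45% and 0.632%. Counting alone gives 1.57% at the mean count over all libraries. The mean went from 111.7 ± 1.62 to 78.9 ± 0.4985 CPM (SD, n = 4 each), a log2 fold change of -0.50 ± 0.03 (SE) and an adjusted p of 2.94e-08 by edgeR (Benjamini-Hochberg over all genes, as for every adjusted p of a gene here).

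Dis3, the processive nuclease at the bottom of the barrel (gene ID 72662, chromosome 14, 99076634 to 99099780), fell less. Its level was 70.2, 63.8, 62.0 and 59.9 CPM in intact and 56.3, 59.0, 55.0 and 57.3 CPM in deleted cortex. The lowest intact library lay just above the highest deleted one. The log2 fold change was -0.17 ± 0.05 (adjusted p = 0.00812 in edgeR's test), and the call depended on the scaling, with -0.11 and adjusted p = 0.0577 under upper-quartile factors and -0.11 and adjusted p = 0.0668 with library totals only. Dis3 overlaps Pibf1 on the opposite strand by 357 bases, and the libraries carry no strand.

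The balance between the nucleases could be read within each library, with no scaling. The ratio of Dis3 to Exosc10 counts was 0.618, 0.569, 0.566 and 0.537 in intact and 0.708, 0.753, 0.698 and 0.726 in deleted cortex. It was higher in all 4 deleted libraries, by 0.34 ± 0.05 (SE) on the log2 scale (exact two-sided permutation test, p = 0.0286, the smallest that 4 against 4 allows; adjusted p = 0.0429 over 3 ratios). Dis3 was also set against Dis3l, its cytoplasmic paralog, where the ratio was 1.17 to 1.37 in intact and 1.12 to 1.19 in deleted cortex. These ranges overlapped, and the difference of -0.12 ± 0.05 did not pass (exact permutation p = 0.114, adjusted p = 0.114), although without intact replicate 4 it was -0.16 with an unadjusted exact p = 0.0286.

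**Figure D2:**
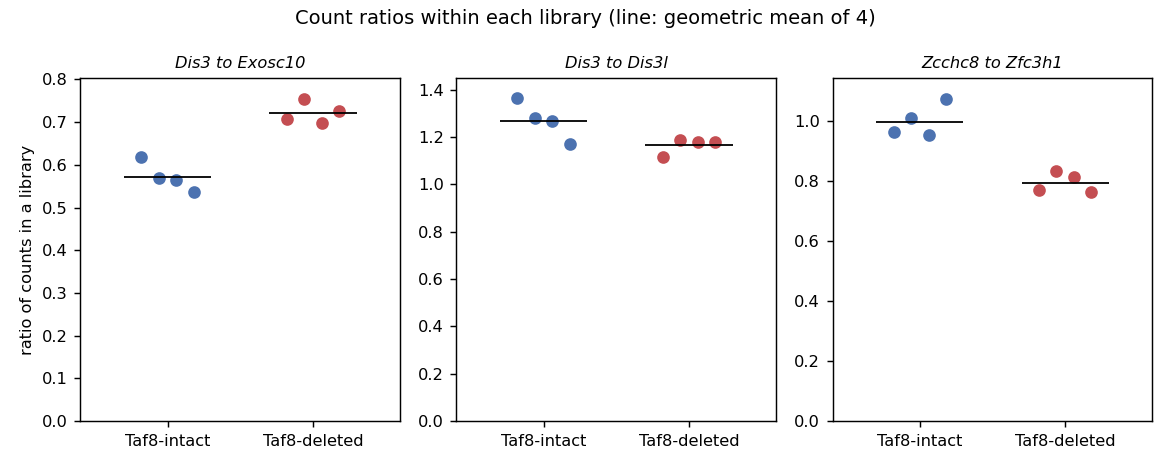
Ratio of the counts of 2 genes within each library, for 4 Taf8-intact (blue) and 4 Taf8-deleted (red) libraries; the line is the geometric mean of the 4. Dis3 to Exosc10 lies at 0.537 to 0.618 in intact and 0.698 to 0.753 in deleted libraries, Dis3 to Dis3l overlaps between the groups, and Zcchc8 to Zfc3h1 is lower in all deleted libraries.

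The cap genes split. Exosc3 (gene ID 66362, chromosome 4, 45316613 to 45320616), whose protein sits on the ring and binds RNA, had 20.2, 21.0, 19.0 and 21.7 CPM in the intact and 16.4, 17.3, 16.2 and 15.6 CPM in the deleted libraries. All deleted values lay below all intact ones, and the gene fell by 0.32 ± 0.06 (log2 ± SE; adjusted p = 3.27e-04 in edgeR's test). Exosc2 (gene ID 227715, chromosome 2, 31670715 to 31681352), a cap protein of the same fold, went the other way, from 33.9, 33.2, 33.1 and 32.4 CPM to 40.5, 39.0, 41.3 and 39.2 CPM. It rose by 0.27 ± 0.04 (adjusted p = 5.05e-05 in edgeR's test). Exosc1 (gene ID 66583, chromosome 19, 41922978 to 41933423), the remaining cap subunit, rose by 0.21 ± 0.05 (adjusted p = 0.00173 in edgeR's test), from 21.3 to 23.4 CPM in intact to 25.6 to 26.4 CPM in deleted libraries. Exosc2 overlaps the lncRNA gene Gm13427 by 4987 bases, and Gm13427 has no row in the table.

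Of the 5 ring genes among the 10, 4 rose, where 30.6% of all genes tested were called higher. The ring gene Exosc6, outside the 10, was not called, at a log2 fold change of -0.18 ± 0.11 (SE). Exosc5 (gene ID 27998, chromosome 7, 25659153 to 25668032) had the largest rise of the 10 genes, from 15.1, 13.5, 14.4 and 16.6 CPM to 19.6, 21.3, 21.6 and 18.8 CPM. Its libraries were also the most scattered, with a coefficient of variation of 8.79% in intact and 6.65% in deleted cortex, yet the groups did not overlap. The log2 fold change was 0.45 ± 0.07 (adjusted p = 1.57e-04 in edgeR's test). Exosc9 (gene ID 50911, chromosome 3, 36552606 to 36565727), a ring subunit known as an autoantigen in myositis and scleroderma, went from 42.0 to 45.4 CPM in intact to 47.9 to 52.5 CPM in deleted libraries and rose by 0.22 ± 0.04. Exosc4 (gene ID 109075, chromosome 15, 76327397 to 76330670) went from 31.6 to 35.0 CPM to 36.9 to 39.2 CPM and rose by 0.21 ± 0.04. Their adjusted p in edgeR's test was 6.48e-04 and 0.00105. Exosc7 (gene ID 66446, chromosome 9, 123113231 to 123136129) had the smallest rise, 0.14 ± 0.04 (adjusted p = 0.0137), from 29.4 to 30.5 CPM to 31.8 to 34.9 CPM. Without deleted replicates 2 and 3, which had the highest meningeal sums (116 and 146 CPM), it was 0.11 with adjusted p = 0.0724.

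Exosc8 (gene ID 69639, chromosome 3, 54728679 to 54735364) was the ring gene of this list that was not called. It had 40.6, 40.3, 39.3 and 37.6 CPM in intact and 37.4, 37.5, 37.5 and 37.2 CPM in deleted libraries. The groups lay side by side without overlap, at a log2 difference of -0.08 ± 0.04 (adjusted p = 0.0880 in edgeR's test).

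Divided by the gene lengths in the deposited table, levels can be compared between subunits as far as those lengths hold. The length was 1037 bases for Exosc7 and 1789 for Exosc4, where their GENCODE exons cover 6013 and 1945 bases. Another choice of length could change the order. In intact cortex Exosc10 stood first at 40.0 ± 0.582 CPM per kilobase (SD, n = 4), clear of Exosc8 at 30.8 ± 1.06 and Exosc7 at 28.7 ± 0.516, which overlapped, and Exosc9 followed at 26.8 ± 0.887. A lower group began with Exosc2 at 20.3 ± 0.376 CPM per kilobase. Below it the ranges of successive genes overlapped through Exosc3, Exosc4, Dis3 and Exosc5 down to Exosc1 at 13.9 ± 0.588. In deleted cortex Exosc10 had rank 4 at 28.3 ± 0.179 CPM per kilobase, behind Exosc7 at 31.7 ± 1.43, Exosc9 at 31.1 ± 1.36 and Exosc8 at 29.2 ± 0.0998. Exosc7 and Exosc9 overlapped there, as did Exosc1, Exosc3 and Dis3 at the low end, at 16.1, 15.8 and 15.3 CPM per kilobase.

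**Figure D3:**
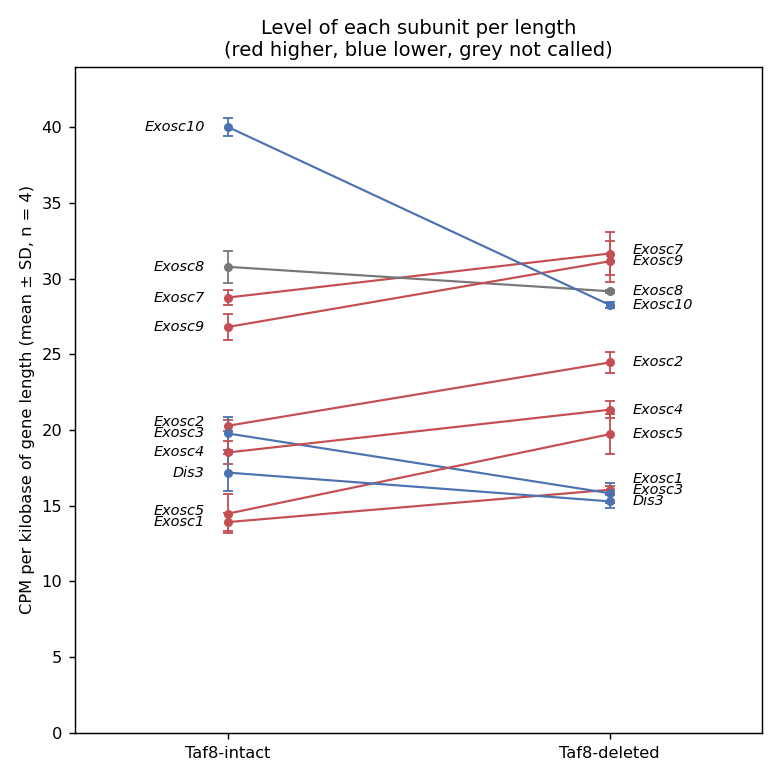
CPM per kilobase of gene length of the 10 subunit genes in Taf8-intact and Taf8-deleted cortex (mean ± SD of 4 libraries; red called higher, blue called lower, grey not called). Exosc10 goes from rank 1, at 40.0, to rank 4, at 28.3, while the other genes keep within 13.9 to 31.7.

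Summed over the 10 genes, the level per length was almost the same in both groups on the TMM scale. It was 231 ± 4.07 CPM per kilobase in intact and 233 ± 2.38 in deleted cortex (SD, n = 4 each). The TMM factors were 0.971 to 0.987 in intact and 1.013 to 1.028 in deleted libraries. Without them the deleted sums would stand higher against the intact ones, so the near equality depends on the scaling. The makeup of the sum differed. The 5 ring genes together went from 119 ± 1.93 to 133 ± 1.93 CPM per kilobase and the 3 cap genes from 54.0 ± 1.09 to 56.3 ± 0.766, while both nuclease genes together went from 57.2 ± 1.67 to 43.5 ± 0.370. Exosc10 held 17.2% to 17.5% of the sum in the intact and 11.9% to 12.3% in the deleted libraries. Since these sums hold the genes described one by one above, no test was made of them.

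Several subunit genes share ground with a neighbour, which bears on how their reads can be assigned without strand. Exosc4 lies wholly within the annotated span of Oplah, the gene of an enzyme of glutathione turnover, on the opposite strand, and 385 bases of exon are shared in GENCODE. Oplah rose from 14.8 to 23.5 CPM (log2 0.66 ± 0.05, adjusted p = 6.21e-07 in edgeR's test). Exosc9 shares 510 exon bases at its 3′ end with Ccna2, the cyclin A2 gene, which stood at 169.6 ± 15.1 and 171 ± 8.74 CPM and was not called. Exosc8 shares 89 exon bases with Supt20, a SAGA subunit gene that rose by 0.19 ± 0.04 (adjusted p = 0.00149).

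Of 5 head-to-head partners, whose start lies within 1000 bases on the opposite strand, 2 were called, where 63.5% of all genes tested were. Zdhhc16, a palmitoyltransferase gene that starts 22 bases from Exosc1, rose by 0.14 ± 0.04, as Exosc1 did by 0.21. Bckdha, a subunit gene of branched-chain ketoacid dehydrogenase, faces Exosc5 and was not called, at -0.09 ± 0.05 (adjusted p = 0.109 in edgeR's test). Zdhhc3, another palmitoyltransferase gene, faces Exosc7 and was not called either, at 0.06 ± 0.03. Alg5, a glycosylation enzyme gene, faces Exosc8 and rose from 17.8 to 24.0 CPM, by 0.43 ± 0.05 (adjusted p = 5.07e-06), where Exosc8 stood at -0.08. Pibf1, a centrosomal protein gene, faces Dis3 and was at 21.0 and 21.2 CPM, a log2 difference of 0.01 ± 0.06. The differences between partners were not tested. Exosc3 and Exosc10 have no overlapping or head-to-head gene in the RefSeq table.

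**Figure D4:**
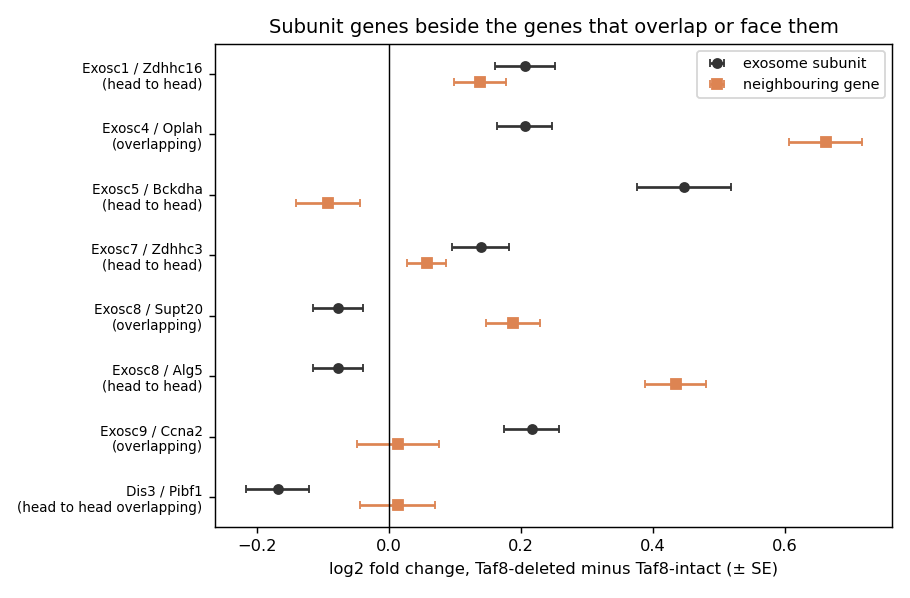
Log2 fold change (Taf8-deleted minus Taf8-intact, ± SE) of exosome subunit genes (circles) and of the genes that overlap them or start head to head with them (squares). Oplah at 0.66 and Alg5 at 0.43 lie to the right of Exosc4 at 0.21 and Exosc8 at -0.08, and Bckdha at -0.09 to the left of Exosc5 at 0.45.

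Outside the 10 genes, the ring subunit gene Exosc6 was not called, with overlapping groups (log2 -0.18 ± 0.11, adjusted p = 0.177 in edgeR's test). Dis3l was not called, at -0.04 ± 0.04, and Dis3l2, a relative that degrades uridylated RNA without the exosome, fell by 0.27 ± 0.03.

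Nuclear cofactors bring RNA to the exosome through the helicase Mtrex, which was not called, at 133.7 and 130.1 CPM (log2 -0.04 ± 0.05; named after its value was seen). Of 7 cofactor genes 2 rose and 3 fell, where 30.6% of all genes tested were called higher and 32.9% lower. Nop53, a nucleolar protein that guides the helicase to ribosomal precursors, had 116, 119, 112 and 121 CPM in the intact and 51.0, 51.8, 54.3 and 53.5 CPM in the deleted libraries and fell by 1.15 ± 0.04 (adjusted p = 4.57e-10 in edgeR's test). Nrde2, which binds and restrains the helicase, fell by 1.16 ± 0.05, from a mean of 34.4 ± 1.38 CPM to 15.4 ± 0.413 CPM (SD, n = 4 each). In both genes every deleted library lay far below the lowest intact one. Wdr74 and Nvl, which act with the helicase in ribosome assembly, rose by 0.21 ± 0.04 and 0.11 ± 0.04. Mphosph6, a small exosome-associated protein, fell by 0.24 ± 0.07 (named after its value was seen). Only 2 cofactor genes were called lower with library totals only and when deleted replicate 1 or 3 was left out. The groups of Nvl overlapped, and only 1 cofactor gene was called higher under several alternatives, among them the omission of intact replicate 1, 3 or 4 or of deleted replicate 1 or 4. Mtrex, Nvl, Nop53 and Dis3l2 overlap other annotated genes.

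Adaptor complexes of the nuclear exosome differed in direction. In TRAMP, which tags RNA with short poly(A) tails, the polymerase genes Tent4a and Tent4b fell by 0.21 ± 0.03 and 0.35 ± 0.03, and the zinc knuckle gene Zcchc7 rose by 0.35 ± 0.10, a call lost with the replicate block and without intact replicate 4 and deleted replicate 1. Both genes of NEXT, which targets promoter-associated RNA, rose, Rbm7 by 0.24 ± 0.04 and Zcchc8 by 0.09 ± 0.04, but only 1 was called under several alternatives. Of 5 genes of PAXT, which targets polyadenylated nuclear RNA, 4 rose and none fell, where 30.6% of all genes tested were called higher and 32.9% lower. The PAXT scaffold gene Zfc3h1 rose by 0.43 ± 0.06 (adjusted p = 4.71e-05 in edgeR's test), from 87.1 to 117 CPM. Pabpn1 rose by 0.17 ± 0.05, Rbm26 by 0.11 ± 0.04 and Rbm27 by 0.10 ± 0.04, while Zc3h3 was at 0.07 ± 0.07. Only 3 PAXT genes were called higher under several alternatives, among them no filter, the replicate block and the omission of deleted replicate 2. That count was 2 when intact replicate 4 was left out together with deleted replicate 1. The ratio of Zcchc8 to Zfc3h1 was 0.953 to 1.07 in the intact and 0.762 to 0.835 in the deleted libraries, a log2 difference of -0.33 ± 0.05 (exact two-sided permutation test, p = 0.0286, adjusted p = 0.0429). Of the cap-binding genes that pass RNA to these adaptors, Ncbp1 and Ncbp2 rose by 0.25 ± 0.03 and 0.19 ± 0.03, Srrt fell by 0.10 ± 0.04 (not called under several alternatives) and Zc3h18 was at -0.01 ± 0.04. The groups of Zcchc7, Zcchc8, Pabpn1 and Rbm27 overlapped although these genes were called. Ncbp1 and Zc3h18 overlap other annotated genes.

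**Figure D5:**
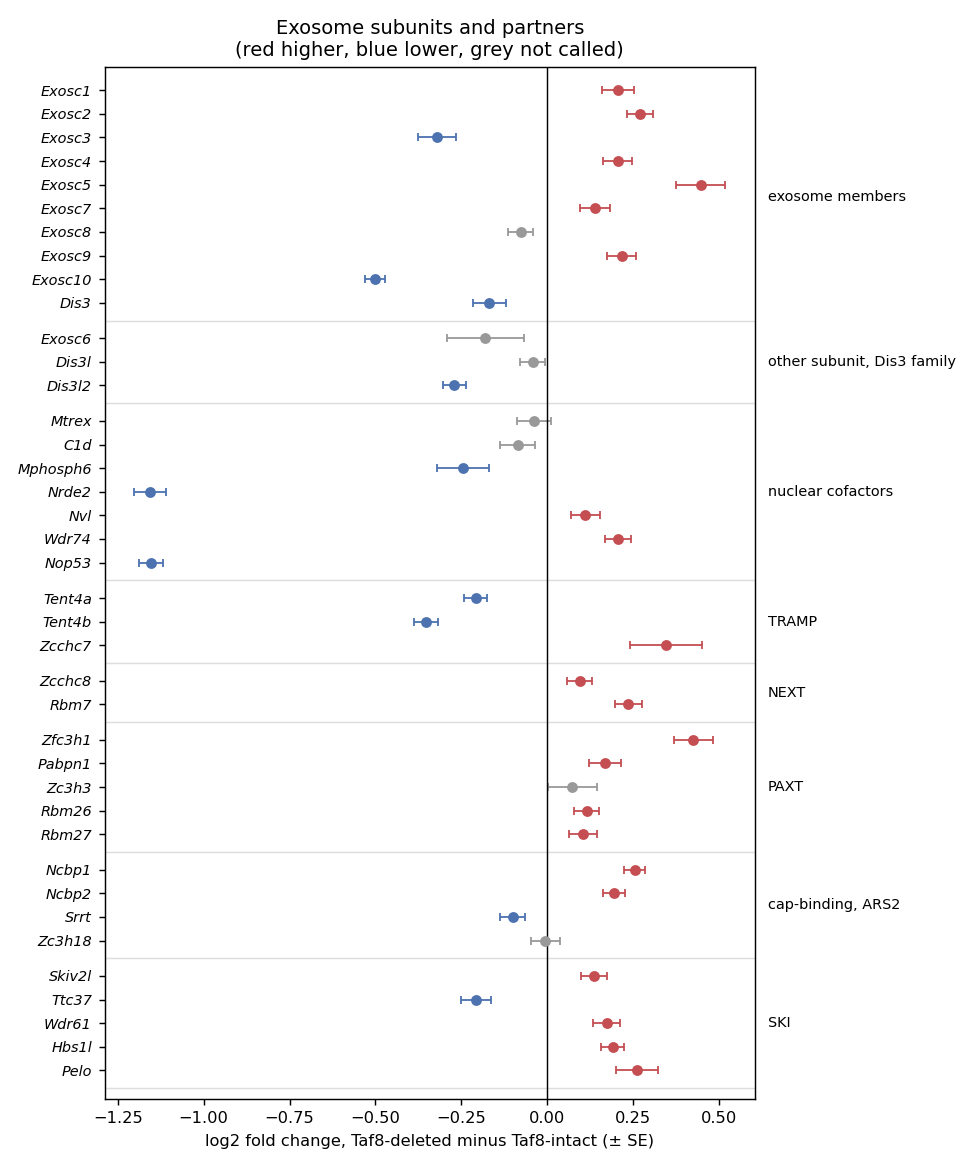
Log2 fold change (Taf8-deleted minus Taf8-intact, ± SE) of exosome subunits, relatives and partner complexes; red was called higher, blue lower and grey not called by edgeR's quasi-likelihood test. Nrde2 and Nop53 lie near -1.16 and -1.15, and no other gene shown goes below Exosc10 at -0.50.

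In the cytoplasm the exosome works with the SKI helicase complex. Its helicase gene Skiv2l and the WD-repeat gene Wdr61 rose by 0.14 ± 0.04 and 0.17 ± 0.04, and the scaffold gene Ttc37 fell by 0.21 ± 0.04. The ribosome rescue genes Hbs1l and Pelo rose by 0.19 ± 0.03 and 0.26 ± 0.06. Each of these 5 genes had groups that did not overlap, as had 57.7% of all genes tested. Of all genes tested, 30.6% were called higher and 32.9% lower. Pelo and Hbs1l overlap other annotated genes.

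Classes of noncoding RNA with members on which the nuclear exosome is known to act were set beside these values. The libraries were poly(A) libraries, so they measure poorly any noncoding RNA without a poly(A) tail. Of 762 lncRNA genes tested, 52.0% were higher and 10.9% lower, against 29.5% and 34.8% of protein-coding genes, and the median log2 fold change was 0.50 against -0.02. Reads in lncRNA genes made up 0.668% to 0.704% of the counts in the intact libraries. In the deleted libraries they made up 0.935%, 0.823%, 0.839% and 0.956%. Among 9 named nuclear lncRNAs 4 rose and none fell. Rian rose by 0.48 ± 0.04, Miat by 0.71 ± 0.13 and Kcnq1ot1, which overlaps Kcnq1, by 1.36 ± 0.32, while Pvt1 was at -0.27 ± 0.13 and Tug1 at -0.07 ± 0.04. Malat1, named after its values were seen, rose by 1.69 ± 0.45 (adjusted p = 0.0157 in edgeR's test) and stood at 262, 130, 164 and 79.4 CPM in intact and at 564, 359, 363 and 761 CPM in deleted libraries, a wide spread within both groups without overlap. Among the deleted libraries, replicates 1 and 4 had the highest lncRNA shares and the highest levels of Malat1, Miat, Kcnq1ot1 and Rian. What these libraries share was not tested. With the replicate block, 2 of the 9 were called higher. Rian, Pvt1 and Malat1 overlap other annotated genes too.

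Host RNAs of small nucleolar RNAs were called in both directions, where 32.9% of all genes tested were called lower and 30.6% higher. Of 15 tested, 6 fell and 3 rose (6 rose with upper-quartile factors or library totals only), with a median log2 fold change of 0.00. Snhg6 fell from 16.2 to 7.85 CPM, Gas5 by 0.66 ± 0.05 and Snhg4 by 1.10 ± 0.11, and Snhg20 and Snhg7 rose by 0.69 ± 0.10 and 0.40 ± 0.10. Snhg6 and Gas5 overlap other annotated genes. Whether the levels of these RNAs depend on the exosome genes was not tested.

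By the pattern of log2 CPM over the 8 libraries, the protein-coding genes most like Exosc10 were Itfg2, Gtf3c5 and Sertad4, with Pearson r of 0.999. Those most like Exosc5 were Coq4 with 0.992, Edc3 with 0.991 and Naxe with 0.987. Such values mostly follow the difference between the groups that all libraries share, and 3169 of 14446 genes had r over 0.9 with Exosc10 and 1396 with Exosc5.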

How the data were processed

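Total RNA from a Qiagen RNeasy kit was turned into unstranded poly(A) TruSeq libraries, per the labels' protocols. The deposited values are raw counts of reads per gene, beside a column of gene lengths. The submitters' processing notes name bcl2fastq 1.8.4, Subread 1.5.0, featureCounts and mm10. No source used here states the annotation, the treatment of shared reads or a filter. The 8 single-library lists were identical to the columns of the matrix.

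Symbols and spans came from NCBI RefSeq (GRCm38.p6), matched by gene ID for 25275 of 27179 identifiers; the others stayed in totals and tests (0.490% to 1.64% of counts). Strands came from the RefSeq promoter table or GENCODE M21, and shared exons from GENCODE. Counts were filtered with filterByExpr, scaled by TMM and compared by edgeR 4.0.16 (R 4.3.3), quasi-likelihood test with robust estimation, all 8 libraries, no covariates, Benjamini-Hochberg over 16074 genes, threshold 0.05. Fold changes are deleted minus intact, with SE from the F statistic. Ratios used counts plus 0.5 and exact permutation. The fit was tested on simulated data in which few genes changed. That setting differs from these data, where 63.5% of genes tested were called, so it cannot judge the scaling. Replicates are separate embryos; no pair agreed within sampling noise (chi-square per gene 4.22 to 14.6). Same-numbered libraries did not deviate together (r = -0.455 to 0.005), so numbers were not treated as pairs.

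All 10 subunits and Taf8 are named, with every gene of short lists, the 3 smallest p and the 2 smallest in the opposite direction of lists over 5 genes, and annotated neighbours. The members and lists were chosen with earlier results of these data known. A comparison of protein sequences and a report of an NRF1-type motif were planned and not made here. The sum of cortical identity markers is not reported here.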

Additional observations from a re-analysis of the deposited data

Results flagged for a closer look

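The Dis3 to Dis3l ratio in the Taf8-deleted libraries held a value apart from the others. Replicate 1 stood at 1.12 and the other 3 libraries at 1.18 to 1.19, so that the gap was 0.854 of the whole range, above the limit of Dixon's test for 4 samples. It was the only such case among 26 sets of 4 values checked (the 10 subunit levels and 3 ratios in each group), and chance flags about 1 in 20.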

How the results depend on the processing

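Under 20 alternatives (other size factors, filters, DESeq2 1.42.0, limma 3.58.1 voom without and with quality weights, the replicate block, identifiers without a symbol left out, and libraries left out), 8 of the 10 subunit genes kept their direction and their side of the threshold in every one, and the direction of Exosc7 and Dis3 held too. Exosc7 lost its call without deleted replicates 2 and 3, and Dis3 with upper-quartile factors and with library totals only; the cause was not tested. The counts of 6 higher and 3 lower therefore went to 5 and 3, 6 and 2, and 6 and 2. Leaving out any single replicate left them at 6 and 3, and over all genes gave 4617 to 5024 higher and 4876 to 5103 lower. The log2 fold change of Exosc10 ranged from -0.51 to -0.44. With the replicate block, although the numbers do not pair the embryos, the subunit counts were again 6 and 3. The same pairing leaves the Dis3 to Exosc10 difference at 0.335 and the Zcchc8 to Zfc3h1 difference at -0.329, with exact p = 0.125, the smallest that 4 pairs allow. Without single replicates the Dis3 to Dis3l difference was -0.163 to -0.089. Counts of genes called higher in the other lists moved by over 1.5 times as follows: NEXT and the cofactors to 1 in several alternatives, TRAMP to 0 with the replicate block, the named lncRNAs to 2 with that block, and deadenylation to 5 and snoRNA hosts to 6 under upper-quartile factors and library totals only. The snoRNA hosts also went to 5 with intact replicate 3 left out, decapping to 1 with intact replicate 4 left out, and PAXT to 2 and TRAMP to 0 with intact replicate 4 and deleted replicate 1 both left out. Counts lower went to 0 for the cap-binding genes and to 2 for the 5′ to 3′ exonucleases in several. Every subunit gene had 575 or more counts in each library. The counting error of these genes, taken at each gene's mean count over all libraries, was 1.57% to 3.63%. In some, Exosc10 and Exosc8 among them, it exceeded the spread within a group, and in others, such as Exosc5, it was smaller. Whether depth limited the smaller changes was not tested.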

Other observations

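Genes of other routes of RNA decay, from lists chosen with earlier results known, were called in both directions. Over all genes tested, 32.9% were called lower and 30.6% higher. Of 11 decapping genes, 6 fell and 2 rose. Dcp1a and Dcp1b, activators of the decapping enzyme, fell by 0.24 ± 0.03 and 0.41 ± 0.07 (log2 ± SE), the scavenger decapping gene Dcps fell by 0.30 ± 0.04, and Edc3 and the decapping enzyme gene Dcp2 rose by 0.15 ± 0.03 and 0.12 ± 0.04. The groups of Dcp2 overlapped, and 1 decapping gene in place of 2 was called higher when intact replicate 4 was left out. Of 13 deadenylation genes, 3 fell and 2 rose, a balance that turned to 2 and 5 with upper-quartile factors and with library totals only. Cnot2 and Cnot8, of the CCR4-NOT complex, fell by 0.29 ± 0.03 and 0.30 ± 0.04, while Cnot10 of that complex and the poly(A)-specific ribonuclease gene Parn rose by 0.23 ± 0.03 and 0.32 ± 0.04.

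Of 10 genes of nonsense-mediated decay, 4 fell and 1 rose, beside 32.9% and 30.6% of all genes tested. Smg9, a regulator of the kinase of the pathway, fell from 24.2 to 16.4 CPM, by 0.56 ± 0.06, Smg5 fell by 0.22 ± 0.03, and Upf2 rose by 0.19 ± 0.03; Smg8 was at 0.01 ± 0.04. The 5′ to 3′ nuclease gene Xrn2, which acts in the nucleus, fell by 0.17 ± 0.03, its cytoplasmic relative Xrn1 was at -0.15 ± 0.06 (adjusted p = 0.0512 in edgeR's test; 2 genes of this list in place of 1 were called lower in several alternatives), and the decapping exonuclease gene Dxo rose by 0.37 ± 0.05. Dcp1a, Dcp1b, Dcps, Cnot2, Cnot8, Cnot10, Parn and Xrn1 overlap other annotated genes, and the libraries carry no strand.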
